A study of Mus musculus with 4 samples.

Results

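Kdm6b shRNA was set against its control vector in cultured mouse hippocampal neurons that had been made to fire, and the difference was described across all genes. Each gene's difference is log2(FPKM + 1) in the Kdm6b shRNA library minus log2(FPKM + 1) in the vector library, both after Bic/4AP. FPKM is the number of sequenced fragments scaled by transcript length and by sequencing depth, and adding 1 makes differences of weakly expressed genes smaller than their true ratio. Rows of a symbol were summed, failed rows and small RNA symbols were dropped, and a gene needed an FPKM of 1 or more in either library to be compared. This left 13240 genes of 22492 symbols in the tables.

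All cultures came from CD1 pups, an outbred strain, taken on postnatal day 0, and carried a pLKO.1 lentivirus from day 4 in vitro until harvest on day 11. The hairpin group with Bic/4AP expressed an shRNA against Kdm6b and received bicuculline at 50 µM (the unit is written µm in the labels and read here as micromolar) with 4-aminopyridine at 2.5 mM for 3 h. The vector group with Bic/4AP carried the pLKO.1 vector and had the same drugs for the same time. The untreated hairpin and untreated vector groups had the same viruses and no drugs, so that every group, the controls included, was infected. Each group was 1 library, a single hairpin was used, and the control was the pLKO.1 vector. How many pups or dishes went into a library is not given. With no replicates there was no test, and every value describes 1 culture per group.

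Kdm6b encodes JMJD3, an enzyme that removes methyl groups from lysine 27 of histone H3, a mark that Polycomb complexes place on silent genes. Its transcript is itself induced by synaptic activity. With inhibition through GABA-A receptors blocked by bicuculline, and potassium channels blocked by 4-aminopyridine, excitatory neurons fire in bursts. Firing switches on immediate-early transcription factors such as Fos and Npas4, and then effector genes such as Bdnf, Inhba and Serpinb2, several of which promote neuronal survival.

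Kdm6b, on chromosome 11 from 69212020 to 69227177 (build mm9, as are all gene positions in the tables), was low in the hairpin libraries. Its FPKM was 4.83 with the hairpin and 13.1 with the vector under Bic/4AP, and 2.73 with the hairpin and 6.74 with the vector untreated. The Bic/4AP difference was -1.28, and the authors' bounds, 4.58 to 5.08 against 12.7 to 13.6, did not overlap. Kdm6a, the related H3K27 demethylase on the X chromosome, had 6.87 with the hairpin and 5.67 with the vector under Bic/4AP. Kdm6b was the single member at least 2-fold apart among the 21 measured genes of H3K27 methylation and demethylation, whose median difference was 0.08.

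The libraries were alike in depth, as far as the authors' bounds show it. The median distance from an FPKM to its upper bound lay between 4.18% and 4.44% at FPKM 5 and above. Read totals are not in the tables, so the depth itself is unknown. These bounds describe the uncertainty of estimating FPKM from the reads of a library, and say nothing of how cultures vary. Markers of excitatory neurons summed to 899 FPKM with the hairpin and 934 with the vector under Bic/4AP, all 14 were above FPKM 1, and astrocyte markers summed to 3498 and 3516 in the same order. Gfap, the astrocyte filament, made up much of that sum, at 1767 with the hairpin and 1686 with the vector. Of 14 measured astrocyte markers 8 lay below 0, with a median of -0.13, and Ntsr2 (-1.01) was 2-fold lower.

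Few genes lay far apart. With the hairpin, 25 of 13240 genes (0.189%) lay 2-fold or more above the vector level and 71 (0.536%) lay 2-fold or more below it, while 56.4% of all genes had a difference above 0. The median difference was 0.03, with 5% of genes below -0.41 and 5% above 0.42, and 93.9% of genes within 0.5 of 0. The genes on the lower side had a median of 5.53 FPKM with the hairpin and 15.7 with the vector. Those on the higher side had a median of 6.13 FPKM with the hairpin and 2.19 with the vector. In the vector library 20 of the 25 higher genes were under 5 FPKM, against 9 of the 71 lower ones. By the direction of the choice, that library holds the weaker level of the higher genes and the stronger level of the lower genes. The authors' bounds of both libraries did not overlap for 22 of the 25 higher and 69 of the 71 lower genes, against 49.7% of all genes. These genes were chosen for a large difference in the same 2 libraries, so such a separation follows largely from the choice. The counts depend on the value added before the log: with 0.1 in place of 1 there were 105 higher and 115 lower genes, and with 5 there were 4 and 26. Of the 71 lower genes 30 hold a 3′ UTR word described later, so that leaving out genes with it leaves 41 by subtraction. The 2-fold limit runs through a continuum. Just inside it lay S100g (1.01) and AI848285 (1.02) above, and Ramp3 (-1.0002) and Ntsr2 (-1.01) below. Just outside it lay Fgl2 (0.99), Tgoln2 (0.99) and Plk4 (0.98) above, and 2010001M06Rik (-0.995) and Nefh (-0.98) below.

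**Figure D1:**
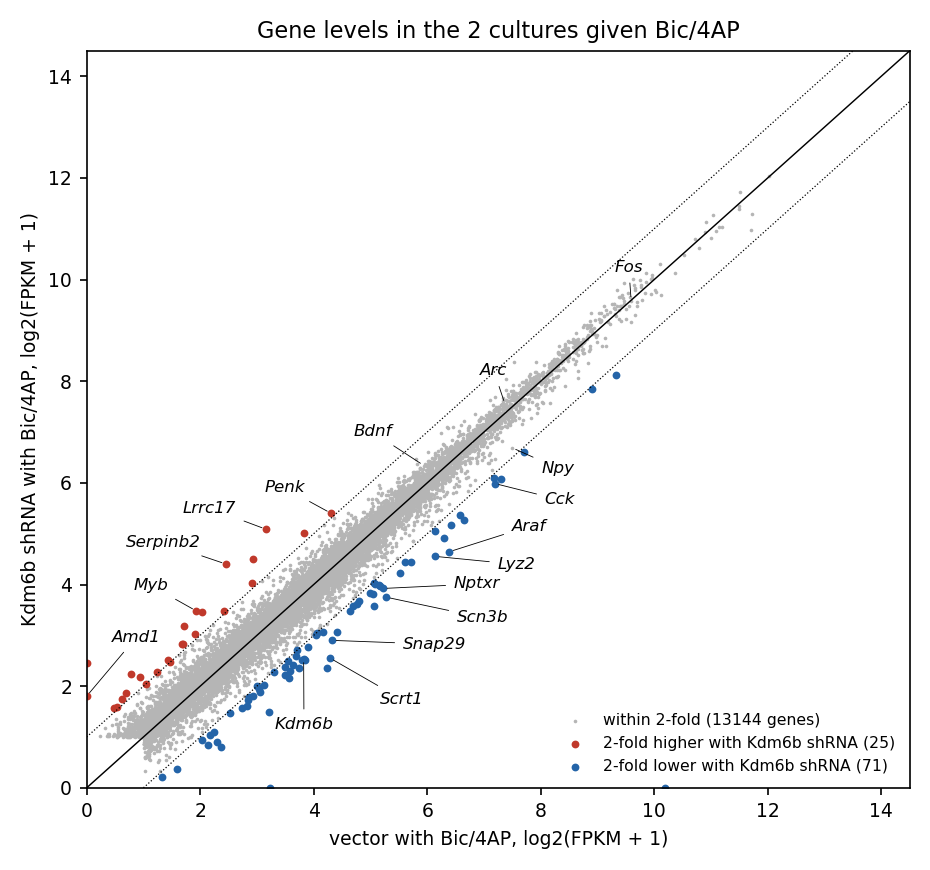
Levels of the 13240 compared genes in log2(FPKM + 1), with the vector library under Bic/4AP on the x axis and the Kdm6b shRNA library under Bic/4AP on the y axis. The solid line marks equal levels and the dotted lines a 2-fold difference. The 71 lower genes spread over most of the range of levels, while most of the 25 higher genes sit at its low end.

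The same hairpin was compared with the same vector in the untreated cultures, which share no library with the firing ones. There 55 of 13295 genes (0.414%) were 2-fold or more above the vector level and 89 (0.669%) below it, with 58.9% above 0. Of the genes lower with Bic/4AP, 51 were also 2-fold lower untreated, which is 71.8% of the Bic/4AP list and 57.3% of the untreated one. Of the genes higher with Bic/4AP, 10 were also 2-fold higher untreated, 40% of the Bic/4AP list and 18.2% of the untreated one. The sign was shared untreated by 67 of 69 lower genes and by 16 of 21 higher genes that could be compared in both states. The share of all genes with the same sign in both states was not worked out. These counts therefore say nothing particular about the 2-fold genes. Across 13077 genes Pearson's r between the differences in the 2 states was 0.771 and Spearman's rho was 0.754. This is a description, since genes are not replicates and both states used the same hairpin and vector.

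**Figure D2:**
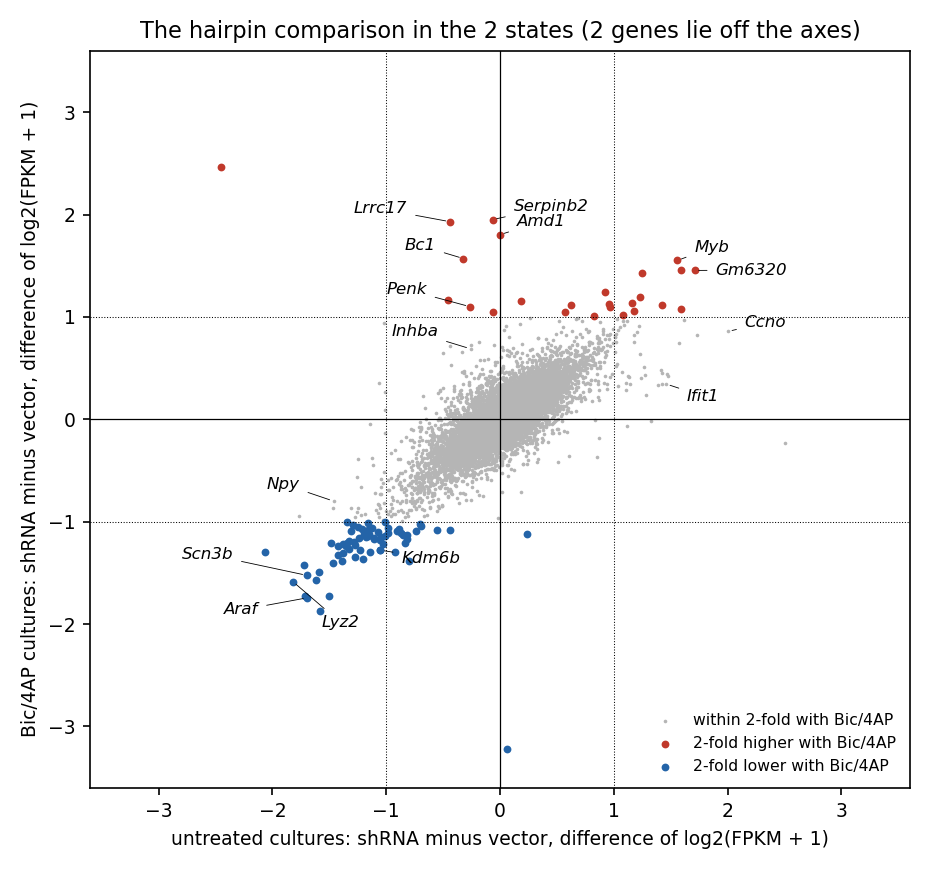
Difference between Kdm6b shRNA and vector for each gene, untreated on the x axis and with Bic/4AP on the y axis, in units of log2(FPKM + 1), with 2 genes beyond the axis limit of 3.6 not drawn. Blue genes (2-fold lower with Bic/4AP) lie almost all in the lower left, whereas red genes (2-fold higher) split between the upper right, where Myb and Gm6320 sit, and a group near or left of 0 on the x axis that holds Serpinb2, Lrrc17, Bc1 and Penk.

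Because a hairpin can act on transcripts other than its target, its sequence was looked up first. The labelled target of 21 bases is given here with the 7 bases that pair with guide bases 2 to 8, the seed, in capitals, followed by the guide strand (the reverse complement) with the seed in capitals. The third line is the stretch of the Kdm6b transcript, in its coding sequence on chromosome 11 (GRCm38 chr11:69400066-69400094, minus strand, exon 22 of 23), that holds a different word, described after the hairpin.
labelled target: ctgttcttgagggACAAACTc
guide strand: gAGTTTGTccctcaagaacag
Kdm6b coding sequence: tcctgttcgttACAAGTGagaatggcagc

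The labelled target had no exact match in any GENCODE mouse release 21 transcript. In Kdm6b it matched best over its first 18 bases in an unbroken run, starting at base 2842 of the 6654-base transcript, and its last 3 bases differed. The 5′ end of the guide in the cells is therefore not certain from the labels. The seed word ACAAACT, read on the transcript strand, stood in the annotated 3′ UTR of 12.8% of 12617 genes with a UTR of at least 50 nt, and of 4 of 67 genes 2-fold lower with Bic/4AP (5.97%). Genes with it had a median difference of 0.03, as had genes without it. The other 8 words along the guide, from bases 1 to 7 through bases 9 to 15, were held by 5 to 10 of the 67 lower genes, and their medians with the word lay between 0.02 and 0.04. The matching word for bases 2 to 8 of the opposite strand, AAGAACA, stood in 15 of the 67 lower genes (22.4%), against 18.1% of all genes.

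A word chosen on the untreated cultures alone gave another picture. For all 15830 words of 7 bases present in at least 100 genes' 3′ UTRs, the untreated differences of the genes that hold them were averaged. Differences were first limited to 3 in size. The means, corrected for UTR length and base composition, were multiplied by the square root of the gene number, so that common words weigh more. Words were ranked by this product. The lowest was ACAAGTG, and it ranked lowest again with Bic/4AP. The 2 states used the same hairpin and vector, and their differences correlated (Pearson's r 0.771). The Bic/4AP values given here for the word therefore follow largely from its choice and are no independent check. ACAAGTG stood in the 3′ UTR of 1511 of 12617 genes (11.98%), of 30 of the 67 lower genes (44.8%) and of 1 of 20 higher genes (5%). Genes with it had a median Bic/4AP difference of -0.08, against 0.04 without it, and 62.5% of them lay below 0, against 41.6% without it. The median was 0.04 with no copy, -0.07 with 1 copy, -0.13 with 2 and -0.16 with 3 or more. UTRs with the word were longer (median 2605 against 1104 nt). In each of 4 length classes the median was lower with the word. It was -0.11 against 0.05 in the shortest class and -0.05 against 0.06 in the longest. The part of UTR length in the differences was not tested. The word occurs once in the Kdm6b transcript, in the coding stretch shown above, and not in its 3′ UTR. None of the 1738 mature mouse miRNAs in the RefSeq-based table has the matching seed. Whether the word has any part in the differences was not tested. The next ranks untreated went to TACAAGT and CAAGTGA, which overlap it by 6 bases each, and these held the same ranks with Bic/4AP.

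**Figure D3:**
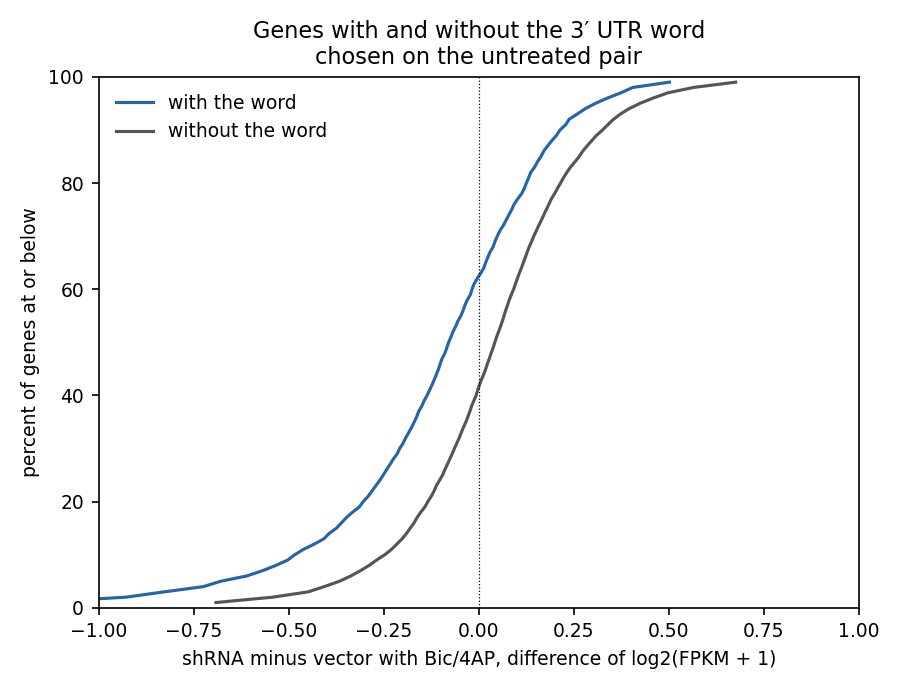
Cumulative share of genes by their difference between Kdm6b shRNA and vector with Bic/4AP, in log2(FPKM + 1), from the 1st to the 99th percentile, for the 1511 genes with the word chosen on the untreated pair in the 3′ UTR (blue) and the 11106 genes without it (grey). The blue curve lies to the left of the grey one over its whole range, with medians of -0.08 and 0.04.

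The sites in 7 of the lower genes, chosen because their values are described next, are given with 11 bases on either side of the word in capitals, 5′ to 3′ on the transcript strand, from the GENCODE release 21 transcripts (GRCm38). Their positions are chrX:20852129-20852157 (plus strand) for Araf, which has 3 copies, chr9:40289921-40289949 (plus) for Scn3b, chr16:17428368-17428396 (plus) for Snap29, chr2:148697007-148697035 (minus) for Napb, chr15:77993843-77993871 (minus) for Cacng2, chr15:92340510-92340538 (plus) for Cntn1 and chr4:49339223-49339251 (plus) for E130309F12Rik (Plppr1).
Araf: attgagtacctACAAGTGttgaatatggg
Scn3b: gagagcagggaACAAGTGacaagattctt
Snap29: tgtcacttattACAAGTGtataatataac
Napb: gcaacctttatACAAGTGacttagtttag
Cacng2: aaaaaggaaaaACAAGTGgtgattttttt
Cntn1: tccagctagaaACAAGTGacagtaaagta
E130309F12Rik: ctctgttcatcACAAGTGttaaccacctg

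Among the lower genes, Araf, a RAF-family kinase that relays growth signals to MEK and ERK, had 24.01 FPKM with the hairpin and 82.8 with the vector under Bic/4AP, and 28.5 with the hairpin and 94.5 with the vector untreated, a difference of -1.74 with Bic/4AP. Its 2 hairpin libraries lay far below both vector libraries. Here and below, the 2 libraries of a virus differ in treatment and are not replicates. For genes that are 2-fold apart in both states, such a separation follows largely from that choice. Among 39 measured genes of the RAS, RAF and MAP kinase families it was the single one 2-fold apart, and their median was -0.00. Scn3b, an auxiliary subunit of voltage-gated sodium channels, had 12.5 FPKM with the hairpin and 37.7 with the vector under Bic/4AP, and 14.05 and 47.9 untreated in the same order (-1.52). The other 8 measured sodium channel genes lay between -0.36 and 0.14, and the list's median was -0.11. Of 53 potassium channel genes none was 2-fold apart with Bic/4AP, with Kcna2 (1.25 FPKM with the hairpin, 2.90 with the vector) the lowest at -0.79.

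Some genes of the synaptic lists were 2-fold lower, where 0.536% of all compared genes were. Snap29, a SNARE protein of vesicle and autophagosome fusion, had 6.47 FPKM with the hairpin and 19.02 with the vector under Bic/4AP, and 5.10 and 19.2 untreated (-1.42). Napb, the SNAP protein that helps take SNARE complexes apart, had 37.3 with the hairpin and 99.04 with the vector under Bic/4AP, and 46.8 and 124 untreated (-1.39). Both hairpin libraries lay below both vector libraries for either gene. These were the 2 of 34 presynaptic genes that were 2-fold lower, and none was 2-fold higher, with a list median of -0.05. Cacng2 (stargazin), an auxiliary subunit that brings AMPA receptors to the synapse, was the 1 of 28 glutamate receptor genes 2-fold apart, with 5.06 FPKM with the hairpin and 11.9 with the vector under Bic/4AP, and 5.67 and 15.5 untreated (-1.09). Nptxr, the neuronal pentraxin receptor, had 14.2 with the hairpin and 36.3 with the vector under Bic/4AP, and 16.5 and 72.5 untreated. Its difference was smaller with Bic/4AP (-1.30) than untreated (-2.07, difference between the states not tested), and its vector level was itself lower under Bic/4AP. Of 30 postsynaptic scaffold and adhesion genes it was the 1 that was 2-fold apart, and Shank3, a scaffold protein, lay at -0.65. Medians of the presynaptic, glutamate receptor and postsynaptic lists were -0.05, -0.10 and -0.05 with Bic/4AP, and -0.21, -0.29 and -0.22 untreated.

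Other single lower genes have known roles in neurons or in autophagy. Stmn2, a tubulin-binding growth cone protein, had 277 FPKM with the hairpin and 644 with the vector under Bic/4AP, and 288 and 731 untreated (-1.21). Cntn1, the axonal adhesion molecule contactin 1, had 35.2 with the hairpin and 84.2 with the vector under Bic/4AP, and 41.9 and 109 untreated (-1.24). In both genes the hairpin libraries lay below both vector libraries. Scrt1, a neuronal repressor of the Snail family, had 4.88 with the hairpin and 18.5 with the vector under Bic/4AP, and 5.28 and 19.6 untreated (-1.73). Becn1, the autophagy regulator beclin 1, had 20.6 with the hairpin and 51.4 with the vector under Bic/4AP, and 23.8 and 50.4 untreated (-1.28). The 3′ UTRs of Scrt1, Stmn2, Becn1 and Nptxr do not hold the word ACAAGTG. Cytoskeletal genes as a list had a median of 0.00, with 12 of 25 below 0 and Nefh (-0.98) after Stmn2.

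Apart from the pseudogene Pisd-ps1, the lowest gene with bounds that did not overlap and a locus of at least 300 bp was 1110001A16Rik (Cebpzos), with 4.16 FPKM with the hairpin and 17.9 with the vector under Bic/4AP, and 4.46 and 15.3 untreated (-1.88). E130309F12Rik (Plppr1), a neuronal membrane protein of the lipid phosphatase-related family, followed Scrt1 at -1.72, with 1.81 with the hairpin and 8.26 with the vector under Bic/4AP. The zinc transporter gene Slc39a3 (-1.34) and the growth factor gene Hbegf (-1.23) lay further up. Hbegf was higher with Bic/4AP than untreated in either virus, at 66.4 with the hairpin and 157 with the vector under Bic/4AP, and 21.8 and 54.3 untreated.

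**Figure D4:**
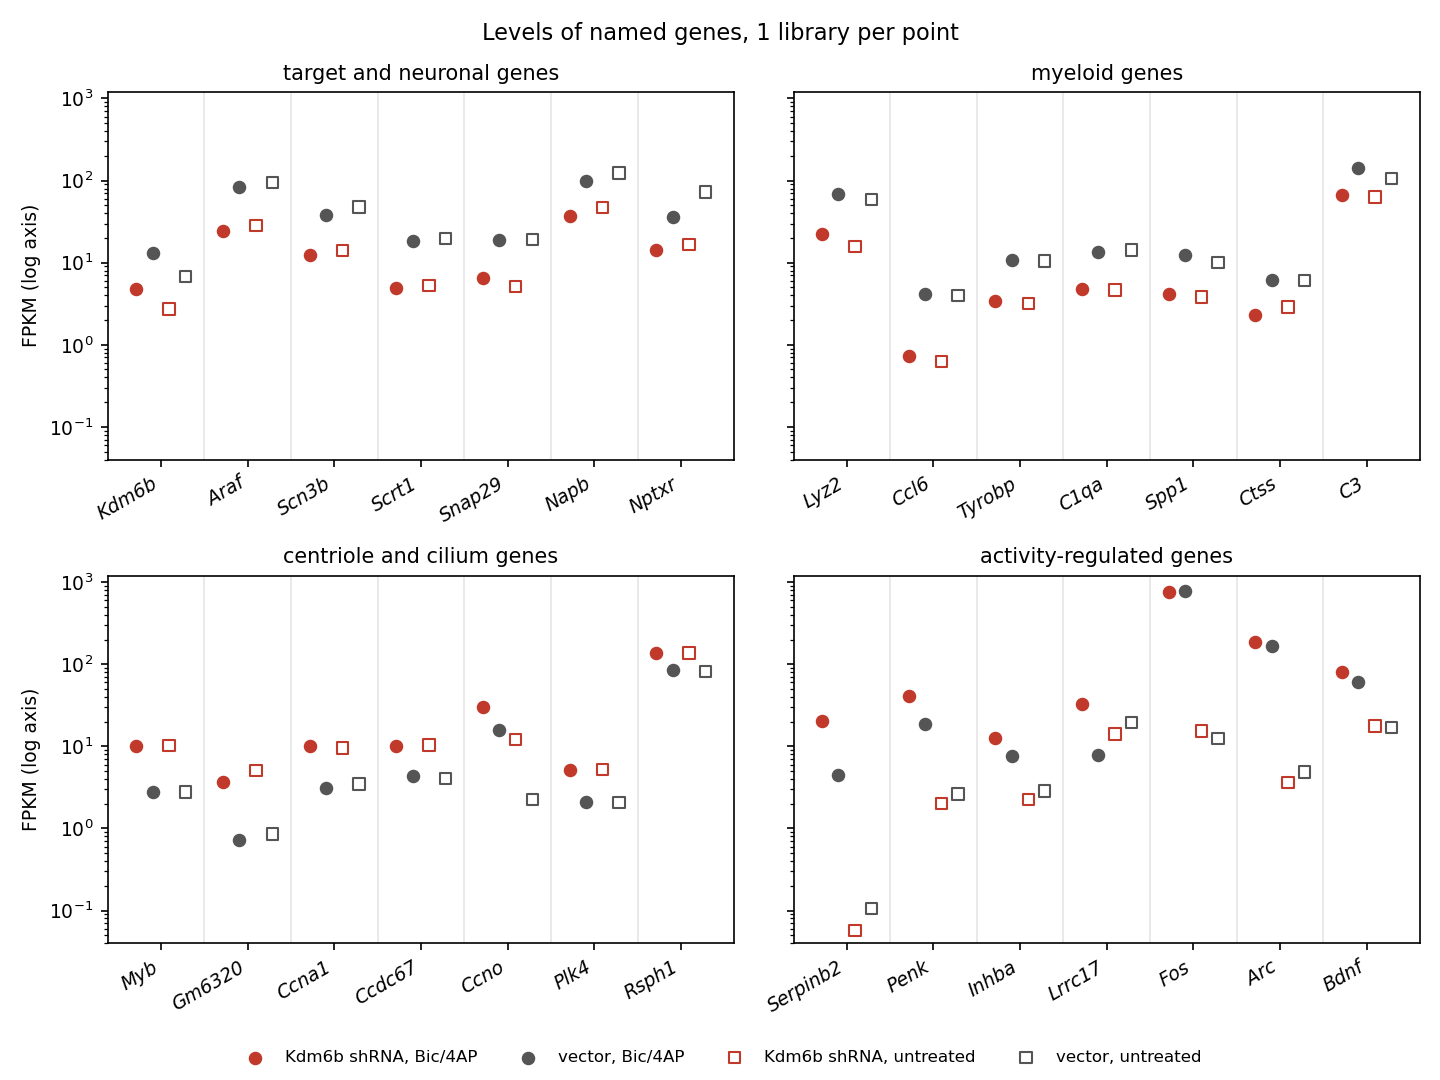
FPKM (log axis) of 28 named genes in the 4 libraries, 1 point per library: Kdm6b shRNA in red, vector in grey, Bic/4AP as filled circles and untreated as open squares. In the panels of target and neuronal, of myeloid, and of centriole and cilium genes the red points lie on the same side of the grey ones in both states, while Serpinb2, Penk, Inhba and Lrrc17 are higher with the hairpin under Bic/4AP and not untreated.

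Neuropeptide genes were split. Cck, the cholecystokinin precursor, had 62.4 FPKM with the hairpin and 145 with the vector under Bic/4AP, and 60.4 and 148 untreated (-1.20). Grp (gastrin-releasing peptide) lay at -1.06 with Bic/4AP and -1.25 untreated. Npy had 102 with the hairpin and 179 with the vector under Bic/4AP (-0.80), and 58.2 and 162 untreated (-1.46). On the other side Penk, the enkephalin precursor, had 41.3 with the hairpin and 18.7 with the vector under Bic/4AP, against 2.02 and 2.63 untreated. Of 25 neuropeptide genes 2 were 2-fold lower and 1 higher with Bic/4AP, 17 lay below 0 and the median was -0.25. Untreated, 8 were 2-fold lower and none higher, and the median was -0.60. Several inhibitory neuron markers lay below 0 beside these genes, although the median of the 21 was -0.15 with Bic/4AP and -0.40 untreated. Gad1, the GABA-synthesising enzyme, lay at -0.72 with Bic/4AP and -1.10 untreated, and 16 of 21 markers lay below 0 in both states. On the other side with Bic/4AP were Vip (0.69), Maf (0.36), Calb1 (0.27), Pvalb (0.25) and Calb2 (0.22). Their part in the result was not tested. Their summed level was 1061 FPKM with the hairpin and 1473 with the vector under Bic/4AP, and 806 and 1523 untreated. Cck, Npy, Sst and Vip belong to both lists. In bulk RNA, fewer cells of a type and less RNA per cell cannot be told apart.

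Genes of microglia and macrophages were also among the lower ones. Lyz2, the myeloid lysozyme, had 22.5 FPKM with the hairpin and 69.4 with the vector under Bic/4AP, and 15.8 and 58.4 untreated (-1.59). Its near-identical neighbour Lyz1 (-1.22) may share reads with it, so that the split between them is uncertain. Tyrobp, the adaptor of microglial receptors, had 3.44 with the hairpin and 10.8 with the vector under Bic/4AP, and 3.17 and 10.5 untreated (-1.41). The complement genes C1qa (-1.32), C1qb (-0.95) and C1qc (-0.87) lay below 0 together, as did the protease gene Ctss (-1.11), Spp1, which encodes osteopontin (-1.37), and the chemokine gene Ccl6, with 0.738 with the hairpin and 4.17 with the vector under Bic/4AP (-1.57). Both hairpin libraries were below both vector libraries for Lyz2, Tyrobp, C1qa and Ccl6.

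Of 25 measured genes of the myeloid lysosome and complement list, 7 were 2-fold lower and none higher, 24 lay below 0, and the median was -0.72. Of all compared genes 0.536% were 2-fold lower and 56.4% lay above 0. The other 5 of the 30 listed genes were below FPKM 1 in both Bic/4AP libraries. Fcer1g, 1 of the 7, reached FPKM 1 only with the vector (0.931 with the hairpin, 3.08 with the vector under Bic/4AP). Of 15 measured microglia markers 3 were 2-fold lower and 12 below 0, with a median of -0.68, and 10 genes stand in both lists. The other 5 of 20 listed markers were below FPKM 1 in both Bic/4AP libraries. Itgam (0.265 with the hairpin, 1.03 with the vector under Bic/4AP) and Emr1 (0.723 and 1.45) reached FPKM 1 only with the vector. For such genes a difference below 0 follows from the filter, so the count and median depend partly on it. Summed microglia markers were 64.3 FPKM with the hairpin and 106 with the vector under Bic/4AP, and 60.3 and 98.5 untreated. The defining markers were weak in every library: Csf1r had 0.357 with the hairpin and 0.830 with the vector under Bic/4AP, Cx3cr1 had 0.623 and 0.713, Tmem119 had 0.0226 and 0.0241, and Ptprc had 0.310 and 0.341. Aif1 (0.04) and P2ry12 (0.10) lay near 0. None of the 7 lower myeloid genes (Lyz2, Tyrobp, C1qa, Lyz1, Ctss, C3 and Fcer1g) holds the word ACAAGTG. Of all 25 measured genes of the myeloid list 4 hold it, against 11.98% of all genes, so the list as a whole does not lack it. C3, a complement gene that astrocytes also express, had 67.1 with the hairpin and 144 with the vector under Bic/4AP (-1.09). Other non-neuronal markers lay below 0 beside the myeloid genes. Oligodendrocyte lineage markers had 9 of 10 below 0 and a median of -0.44, with Mag the lowest (-0.88), and none was 2-fold apart. The other 6 of 16 listed were below FPKM 1 in both Bic/4AP libraries. Mog (0.718 with the hairpin, 1.76 with the vector under Bic/4AP) and Ugt8a (0.691 and 1.33) reached FPKM 1 only with the vector, so their sign followed from the filter. Fibroblast and meningeal markers had 11 of 14 below 0 and a median of -0.20, and summed to 641 FPKM with the hairpin and 853 with the vector under Bic/4AP. None of these was 2-fold apart. Of 18 endothelial and mural markers 13 were below FPKM 1 in both Bic/4AP libraries, with Cldn5 listed at 0 in the vector library under Bic/4AP. The 5 measured ones had a median of -0.30 and the 18 summed to 88.4 FPKM with the hairpin and 118 with the vector under Bic/4AP. The part of these cell types in the result was not tested.

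**Figure D5:**
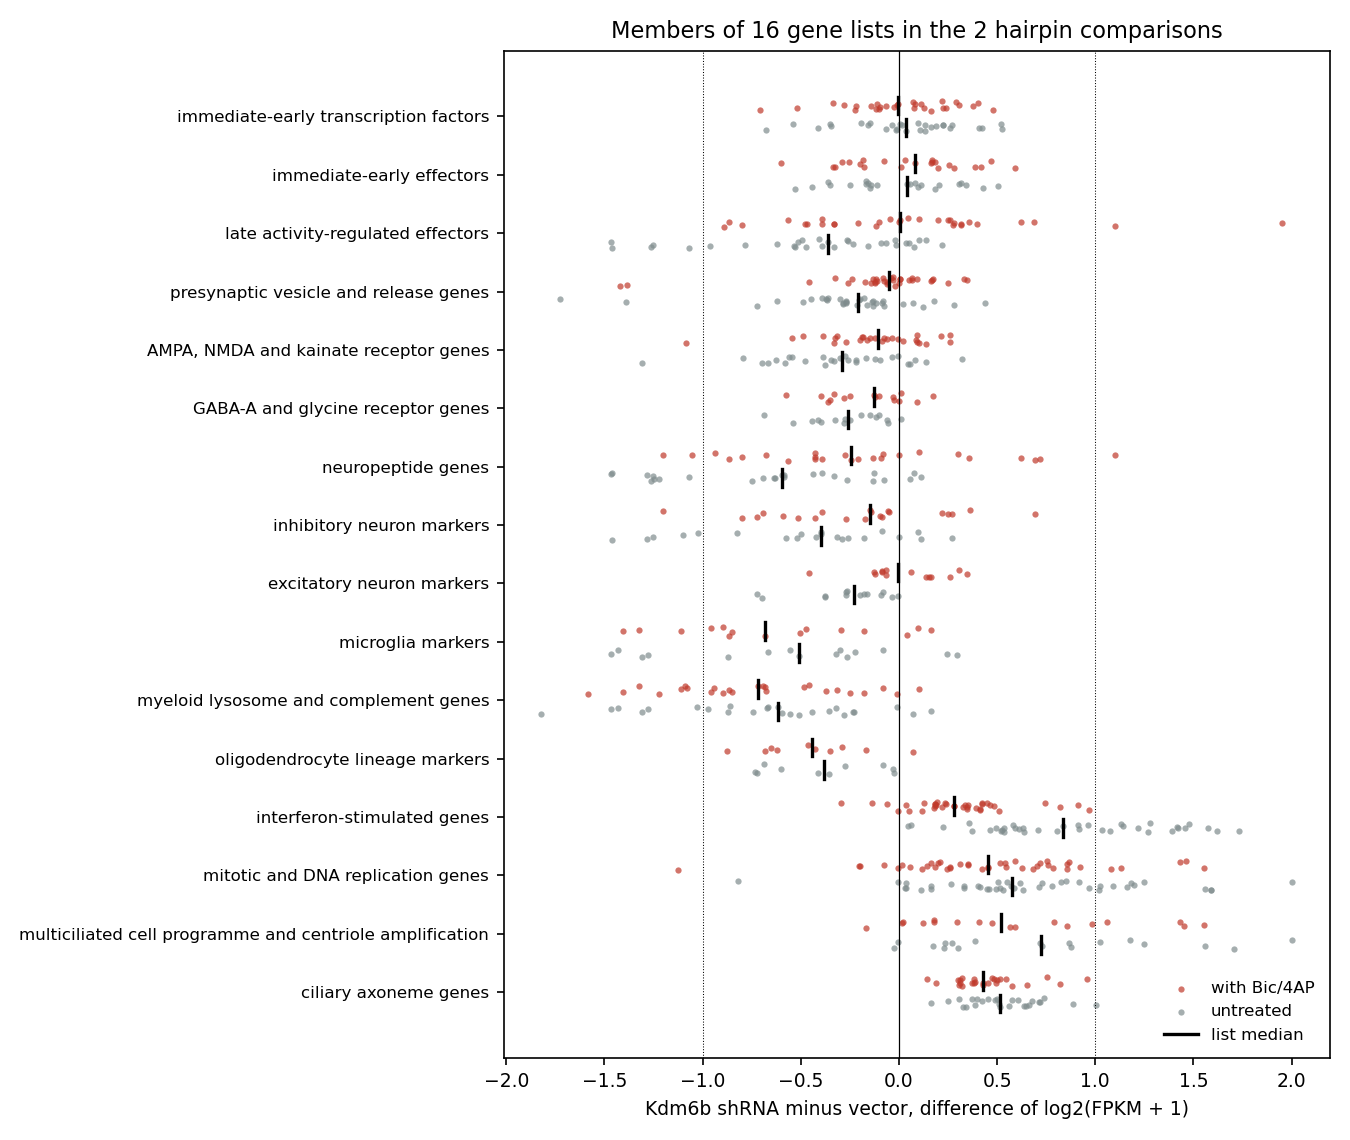
Members of 16 gene lists by their difference between Kdm6b shRNA and vector, with Bic/4AP (red) and untreated (grey), in log2(FPKM + 1); black ticks are list medians and the dotted lines mark 2-fold. Microglia and myeloid genes lie mostly left of 0 in both states, mitotic, multiciliated and axonemal genes mostly right of 0, and interferon-stimulated genes lie nearer to 0 with Bic/4AP than untreated.

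Several of the 2-fold higher genes, chosen here by what they are known for, act in cell division or in multiciliated cells. Multiciliated cells, which line the brain ventricles, make many centrioles at once through structures called deuterosomes, using parts of the mitotic machinery. Myb, a transcription factor of cycling progenitors and of early multiciliated cells, had 10.2 FPKM with the hairpin and 2.81 with the vector under Bic/4AP, and 10.2 and 2.79 untreated (1.55). Gm6320 (Mcidas), which encodes multicilin, an inducer of that programme, had 3.70 with the hairpin and 0.715 with the vector under Bic/4AP, and 5.06 and 0.853 untreated (1.45). Ccdc67 (Deup1), a deuterosome protein, had 10.2 with the hairpin and 4.38 with the vector under Bic/4AP, and 10.4 and 4.06 untreated (1.06). For each of the 3 genes the hairpin libraries lay above both vector libraries. Ccna1, which encodes cyclin A1, had 10.05 with the hairpin and 3.10 with the vector under Bic/4AP (1.43), and Plk4, the kinase that starts centriole assembly, 5.11 and 2.09 (0.98). Ccno, a cyclin needed for centriole amplification, had 29.8 with the hairpin and 16.02 with the vector under Bic/4AP (0.86), and 12.1 and 2.26 untreated (2.003).

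Of 18 measured genes of a multiciliated and centriole list, 4 were 2-fold higher and none lower, 17 lay above 0, and the median was 0.52. All 26 measured genes of a ciliary axoneme list lay above 0, from 0.14 (Enkur) to 0.96 (Spag16), with a median of 0.43. Rsph1, a radial spoke protein, had 136 FPKM with the hairpin and 86.3 with the vector under Bic/4AP, and 138 and 82.1 untreated. Both lists were drawn up after these values had been seen, so their counts are no more than a description. Ependymal and choroid plexus markers, of which 8 stand in one of these lists, had 11 of 14 above 0 and a median of 0.25, and summed to 894 FPKM with the hairpin and 802 with the vector under Bic/4AP. Ttr, a choroid plexus marker, went the other way and was the lowest of them. It had 176 FPKM with the hairpin and 246 with the vector under Bic/4AP (-0.48), and lay at -0.36 untreated.

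Mitotic genes lay higher too. Ckap2l, a spindle protein, had 8.03 FPKM with the hairpin and 2.28 with the vector under Bic/4AP, and 7.61 and 1.86 untreated (1.46). Cdk1, the mitotic kinase, had 6.13 with the hairpin and 2.25 with the vector under Bic/4AP, and 5.92 and 2.09 untreated (1.13). Of 42 mitotic and replication genes 5 were 2-fold higher, 1 was lower, and 37 lay above 0, with a median of 0.45. Leaving out the 3 members shared with the multiciliated list left 34 of 39 above 0 and a median of 0.42. The replication helicase genes Mcm2 to Mcm7 stayed between -0.20 and 0.42, and Rrm2, a subunit of ribonucleotide reductase whose 3′ UTR holds the word ACAAGTG, was the lower one (-1.13).

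Interferon-stimulated genes were higher with the hairpin, and nearer to the vector level under Bic/4AP than untreated. Of 37 measured, 33 lay above 0 with Bic/4AP and none was 2-fold apart, with a median of 0.28. Untreated, all 37 lay above 0, 15 of them at least 2-fold, with a median of 0.83. Ifit1, an antiviral RNA-binding protein, had 11.0 FPKM with the hairpin and 8.43 with the vector under Bic/4AP, and 14.1 and 4.49 untreated. Irf7, a transcription factor of the interferon response, had 6.80 with the hairpin and 3.66 with the vector under Bic/4AP, and 8.55 and 2.21 untreated. Ifi44 was the highest with Bic/4AP (0.97), and Gbp2 the lowest (-0.30). The difference between the states was not tested.

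A last group was higher with the hairpin under Bic/4AP and at or below the vector level untreated; the difference between the states was not tested. Serpinb2, an inhibitor of plasminogen activators that firing induces in neurons, had 20.2 FPKM with the hairpin (authors' bounds 18.9 to 21.5) and 4.47 with the vector (3.84 to 5.10) under Bic/4AP, and 0.0569 and 0.106 untreated. Its difference was 1.95 with Bic/4AP and -0.07 untreated. Penk lay at 1.101 with Bic/4AP and -0.27 untreated. Inhba, the activin subunit gene, had 12.8 with the hairpin and 7.54 with the vector under Bic/4AP (0.69), and 2.23 and 2.87 untreated (-0.26). All 3 are activity-regulated genes, and in either virus their level was higher with Bic/4AP than without. Lrrc17, a secreted leucine-rich repeat protein, had 33.0 with the hairpin and 7.92 with the vector under Bic/4AP, and 14.2 and 19.6 untreated. Its vector level was thus lower with Bic/4AP than without, and its hairpin level higher. Pcsk1, a prohormone-processing enzyme, lay at 0.36 with Bic/4AP and -1.07 untreated, and Cartpt at 0.72 and -0.44.

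Most activity-regulated genes differed little between the viruses during firing. Fos had 765 FPKM with the hairpin and 771 with the vector under Bic/4AP (-0.01), Npas4 had 360 and 340 (0.08), and Arc 185 and 165 (0.17). Nr4a1 (0.13), Atf3 (-0.22) and Gadd45b (-0.20) lay nearly as close to 0, and Btg2 (0.42) and Bdnf (80.0 FPKM with the hairpin, 60.4 with the vector, 0.40) lay somewhat above it. Of 29 immediate-early transcription factors none was 2-fold apart, with 14 above and 15 below 0, a median of -0.00, and a range from Ier2 (-0.71) to Ier3 (0.48). Of 23 immediate-early effectors none was 2-fold apart, with Ctgf lowest (-0.60) and Arl5b highest (0.59). Of 31 late effectors 2 were 2-fold higher and none lower, and 16 lay above 0, with a median of 0.01. Untreated, the late effectors had a median of -0.36, with 5 of them 2-fold lower, namely Cort, Npy, Tac1, Sst and Pcsk1. The 13 measured survival genes had 6 above 0 and a median of -0.03, with Serpinb2 far from the rest.

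The other lists lay close to 0. Of 43 lists with a measured member, 31 had a median within 0.15 of 0, where all genes have 0.03, and 25 held no gene 2-fold apart. Among these were cholesterol biosynthesis genes, with 14 of 23 above 0 and a median of 0.03 under Bic/4AP, against 1 of 23 above 0 and a median of -0.37 untreated. Excitatory neuron markers had 7 of 14 above 0 with Bic/4AP and none untreated. GABA-A and glycine receptor genes had 12 of 16 below 0 and a median of -0.12, with Gabra4 lowest (-0.58). Oxidative phosphorylation genes (0.08), cytosolic ribosomal protein genes (0.08), p53 targets (0.05) and MHC class I genes (0.04) had medians beside that of all genes. Medians this close to 0 depend on scaling: under median-ratio scaling 8 of them took the other sign, among them those of late effectors, cytoskeletal, cholesterol and MHC class I genes. None of the 39 Hox genes, which are classical targets of H3K27 methylation, reached FPKM 1 in either Bic/4AP library.

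Some 2-fold genes are less certain measurements. Amd1 had 2.49 FPKM with the hairpin under Bic/4AP and 0.000838 to 0.000899 in the other libraries, and Pisd-ps1 had 0.00172 there and 7.47 to 8.34 elsewhere. Both belong to families with near-identical copies, so that the assignment of reads to them is uncertain. AF357355 (a locus of 54 bp) was listed at 0 with the hairpin and at 1169 FPKM with the vector under Bic/4AP, and Gm12238 (124 bp) at 4.51 and 0. LOC100302567 (94 bp) had 29.2 with the hairpin and 77.9 with the vector under Bic/4AP. FPKM of loci near the fragment length is unstable, and without these loci under 300 bp 24 genes were 2-fold higher and 69 lower. The small RNA symbols left out of the comparison took 14.2% of summed FPKM in the hairpin library and 5.81% in the vector library under Bic/4AP, and 4.97% and 9.91% untreated.

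Promoters of the 2-fold genes were compared with all promoters in a RefSeq table (GRCm38.p6). A promoter was called CpG-rich at an observed over expected CpG ratio of at least 0.6 and a GC content of at least 50%. This held for 10 of 17 matched higher genes (58.8%) and 24 of 49 matched lower genes (49.0%), against 7285 of 10460 of all matched genes (69.6%).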

How the data were processed

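PolyA-enriched RNA of 4 cultures was sequenced after TruSeq library preparation, per the labels' protocols. The authors deposited 1 table per library of FPKM values with lower and upper bounds for each gene on mm9. CASAVA 1.8, TopHat2 2.0.8b and Cufflinks 2.0.2 are named in the submitters' processing notes, without settings. Read totals are not given in the sources used here. FPKM depends on which transcripts a gene is modelled with, and short loci are estimated poorly.

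From these values, FPKM was summed over rows of a symbol. Symbols with a failed row (42) and small RNA symbols (727) were left out, 1 was added and log2 differences were taken with Python 3.11.15, pandas 2.3.3 and numpy 2.4.6. The calculation was tested on simulated data. With 1 library per group no test was made and 2-fold is a size, not a call of significance.

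The genes, 42 lists and rules were chosen with earlier results of these data known, and 2 lists (multiciliated and axonemal genes) after their values were seen. The rule for names took 15 genes from either end of the differences with bounds apart and loci of at least 300 bp, up to 3 at either end of each list, a fixed set of activity and target genes, and genes 2-fold apart in both states. Fcer1g, Bc1, Snhg9, the genes next to the 2-fold limit, weak microglia markers, short loci and other genes outside this rule were chosen after their values were seen. 3′ UTRs came from GENCODE mouse release 21 (GRCm38), and miRNAs and promoters from RefSeq tables. Some genes are not reported here. Alternatives were other pseudocounts, filters and scalings.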

Additional observations from a re-analysis of the deposited data

Results flagged for a closer look

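Of the genes 2-fold apart with Bic/4AP that also reached FPKM 1 in either untreated library, 7 had a difference between Kdm6b shRNA and vector of opposite sign untreated, whatever its size there. The difference between the states was not tested, since each group had 1 library. Lrrc17 was at 1.93 with Bic/4AP and -0.44 untreated. Penk was at 1.101 with Bic/4AP and -0.27 untreated. The non-coding Bc1, summed over 2 rows and with bounds that overlap, was at 1.57 with Bic/4AP and -0.32 untreated. Snhg9, a small nucleolar RNA host gene, was at 1.17 with Bic/4AP and -0.46 untreated, with bounds that overlap in both states. Gm12238 was at 2.46 with Bic/4AP and -2.46 untreated, and LOC100302567 at -1.39 and 3.90; the Bic/4AP bounds of either locus overlap. The pseudogene Pisd-ps1 was at -3.22 with Bic/4AP and 0.06 untreated.

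Outside the comparison, small RNA symbols held 14.2% of summed FPKM in the Kdm6b shRNA library and 5.81% in the vector library with Bic/4AP.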

How the results depend on the processing

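Counts of 2-fold genes depended on the pseudocount. With 0.1 they were 105 higher and 115 lower with Bic/4AP, 149 and 149 untreated, and 57 and 82 in both states. With 5 they were 4 and 26 with Bic/4AP, 11 and 32 untreated, and 1 and 19 in both. At FPKM 5 or more in either library 13 genes were higher with Bic/4AP. With small RNA symbols kept, 79 were higher and 133 lower with Bic/4AP, 117 and 160 untreated, and 20 higher in both. Leaving out genes with ACAAGTG in the 3′ UTR, an alternative chosen after seeing the data, only subtracts the genes that hold it. It left 41 lower with Bic/4AP, 55 untreated and 27 in both. The 3 scalings shifted the median of all genes by -0.046 to -0.010 and gave 23 to 25 higher and 72 to 77 lower genes with Bic/4AP. Of 515 list medians under 12 alternatives 25 moved by more than 0.144, the median half-width of the authors' bounds. Of 3334 values of named genes 166 did, all under another pseudocount. No named gene that was 2-fold apart changed sign. Under median-ratio scaling 8 of 43 list medians took the other sign, and fewer did under each of the other alternatives. No paired analysis was possible because each group had 1 library. Differences between single cultures, infections or library preparations cannot be told apart from the hairpin.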

Other observations

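Other groups held single genes with large differences. Of 22 measured chemokine and cytokine genes 14 lay above 0, with a median of 0.08, and the ends of the list were far apart. Cxcl14, a chemokine, had 10.9 FPKM with the hairpin and 32.4 with the vector under Bic/4AP (-1.49). At the other end Tgfb3, a TGF-beta ligand, had 16.8 with the hairpin and 8.11 with the vector (0.96), and was as far apart untreated (1.12). Il11, a cytokine of the interleukin 6 family, had 6.50 with the hairpin and 2.99 with the vector under Bic/4AP (0.91), and 0.210 and 0.170 untreated. Cxcl2, a neutrophil chemokine, had 19.98 with the hairpin and 11.0 with the vector under Bic/4AP (0.80), and Ccl5 8.34 and 4.96 (0.65).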
